A study of Mus musculus with 2 samples.

Results

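*Neat1*, *Malat1*, *Gas5* and *Snhg17* are long non-coding RNAs of the mouse, transcripts that encode no protein. They were compared between the dormant cell-derived melanoma line B16F1-GFP-D and the maternal line B16F1-GFP-M. The 4 genes were chosen from measured values of the same arrays, because earlier results of these data placed them among the genes with lower signal in B16F1-GFP-D, so their ratios are given as a description and not as a test. Their probes are all non-control probes whose gene name or current symbol is one of the 4, which gave 8 probes of 41174 and 4 genes of 27790.

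Both lines are murine B16F1 melanoma cells that carry a GFP plasmid and were grown without treatment in the same serum-containing medium. B16F1-GFP-M is the maternal line. The paper calls both lines clonal in a figure caption and speaks of selected B16F1-GFP clones, so the maternal values may also describe a selected clone. B16F1-GFP-D is a single clone, grown from GFP-positive cells sorted from pooled organs of control and immunised mice 1 year after they received B16F1-GFP cells, so its values describe 1 clone. RNA of both lines was hybridised together on 2 Agilent 2-colour arrays of 1 slide with the dyes exchanged: B16F1-GFP-M was in Cy5 on array 1 and in Cy3 on array 2. The labels name no separate cultures, so the 2 arrays were taken as 1 replicate of each line; no test could be made without biological replicates, and the spread given with each value is the SD between the 2 arrays. In a bulk culture, fewer cells of a kind and less RNA per cell cannot be told apart.

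*Neat1* and *Malat1* are neighbours on chromosome 19 and both of their RNAs stay in the nucleus. *Neat1* is the scaffold of paraspeckles, nuclear bodies that form around the RNA together with RNA-binding proteins such as NONO and SFPQ, and its locus makes a short and a long form. *Malat1* gathers in nuclear speckles, where splicing factors are stored, and is one of the most plentiful nuclear RNAs of mammalian cells; its 3′ end is cut by RNase P rather than by the usual polyadenylation machinery. *Gas5* and *Snhg17* are host genes of small nucleolar RNAs. The small RNAs, which guide chemical modification of ribosomal RNA, are cut out of the introns, and the spliced host RNA is exported; that of *Gas5* is known to accumulate in arrested cells and to be degraded by nonsense-mediated decay while it is being translated.

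The values rest on 60-base probes, whose letters show what was measured. They are printed 5′ to 3′ in lower case from the array files, each numbered within its gene along the direction of transcription. All positions of probes are on mm9, as the array files give them.

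Neat1: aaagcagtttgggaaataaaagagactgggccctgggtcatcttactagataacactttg
Malat1 probe 1: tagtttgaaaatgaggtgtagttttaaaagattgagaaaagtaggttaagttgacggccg
Malat1 probe 2: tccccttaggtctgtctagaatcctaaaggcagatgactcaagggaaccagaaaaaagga
Malat1 probe 3: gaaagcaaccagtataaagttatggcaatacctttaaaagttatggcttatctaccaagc
Malat1 probe 4: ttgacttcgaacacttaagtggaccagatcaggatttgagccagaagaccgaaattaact
Gas5 probe 1: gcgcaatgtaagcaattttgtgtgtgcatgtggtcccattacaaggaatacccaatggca
Gas5 probe 2: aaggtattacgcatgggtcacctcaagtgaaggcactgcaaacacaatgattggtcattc
Snhg17: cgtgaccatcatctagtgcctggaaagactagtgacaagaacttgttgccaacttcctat

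The *Neat1* probe lies at chr19:5842564-5842623 on the minus strand, and the array files do not say which form of the RNA it sees. The *Malat1* probes follow it on the same strand at chr19:5802193-5802252, chr19:5800526-5800585, chr19:5799100-5799159 and chr19:5798230-5798289, and cover 4023 bases from end to end. The nearest *Malat1* probe starts 40371 bases from the *Neat1* probe. *Gas5* probe 1 lies at chr1:162966369-162966428 on the plus strand. *Gas5* probe 2 is given at chr1:162967444-162968136, a span of 693 bases for 60 letters, so that its letters come from exons on both sides of at least 1 intron and match spliced RNA. The *Snhg17* probe lies at chr2:158181558-158181617 on the minus strand; the array files name it 9430008C03Rik, an older symbol. Exon annotation on mm9 was not used here, so no exon is given for the other probes. The longest stretch that a member probe shared with the probe of any other gene, on either strand, was 13 to 16 bases of 60, and the GC content of the 8 probes was 35.0% to 45.0%.

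All 8 probes passed the scanner software's flag for signal well above background with either RNA on either array, and no spot was saturated. Spot signals were 8.25 to 1131 times the local background. The label's word abundant could be checked only in this sense, because the brightness of different probes cannot be compared.

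*Neat1* had the largest difference of the 4 RNAs. In Cy5, its spot gave 17167 intensity units with B16F1-GFP-M RNA on array 1 and 1140 units with B16F1-GFP-D RNA on array 2. In Cy3, it gave 5238 units with B16F1-GFP-M on array 2 and 317 units with B16F1-GFP-D on array 1. With the same dye, the maternal line was therefore brighter by 16.1-fold in Cy5 and by 17.7-fold in Cy3 after subtraction of the local background, before any normalization. After normalization, the log2 level was 13.22 and 13.35 in B16F1-GFP-M and 9.23 and 9.13 in B16F1-GFP-D on arrays 1 and 2. The log2 ratio, here and throughout that of B16F1-GFP-D to B16F1-GFP-M, was -3.99 on array 1 and -4.22 on array 2, with a mean of -4.11 ± 0.16 (SD between 2 arrays), a 17.2-fold lower signal. It was the lowest value of all 12540 detected genes under this normalization. *Neat1* was also lowest under 6 of the 11 alternatives, but these kept the same background correction and loess, so they say little about its rank. Under the scanner software's log ratio it ranked 3, behind *Akr1b7* at -5.12. With median centring, a normexp offset of 0, the series value table or no background subtraction it ranked 2, behind *Akr1b7*. RNA remained measurable in B16F1-GFP-D, where the spot was 14.1 and 14.3 times its background.

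With each gene read from its brightest probe, *Malat1* had the smallest difference of the 4 RNAs, and its 4 probes gave nearly the same answer along the transcript. Probe 2, the brightest and therefore the one that stands for the gene, had spot signals of 17815 units for B16F1-GFP-M and 7463 units for B16F1-GFP-D in Cy5, and of 5550 and 2088 units in Cy3. Its log2 ratio was -1.38 on array 1 and -1.73 on array 2, with a mean of -1.56 ± 0.25, a 2.94-fold lower signal. The means of probes 1, 3 and 4 were -1.78 ± 0.10, -1.84 ± 0.14 and -1.88 ± 0.30. All 8 readings, from 4 probes on 2 arrays, lay between -2.09 and -1.38, below 0 and past 2-fold. The mean of the 4 probes was -1.76, with an SD of 0.14 over probes. Probe 2 lay above probe 4 by 0.29 on array 1 and by 0.36 on array 2, whereas probes 1 and 4 exchanged their order between the arrays. These probes share one RNA and are no replicates of the lines.

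The 2 probes of *Gas5* disagreed. Probe 2, across the splice junction, had spot signals of 70633 units for B16F1-GFP-M and 22591 units for B16F1-GFP-D in Cy5, and of 21498 and 4873 units in Cy3. Its log2 ratio was -2.14 on array 1 and -2.28 on array 2, with a mean of -2.21 ± 0.10, a 4.63-fold lower signal. Probe 1 had 691 units for B16F1-GFP-M and 619 units for B16F1-GFP-D in Cy5, and 205 and 165 units in Cy3. Its log2 ratio was -0.34 and -0.14, with a mean of -0.24 ± 0.14, so that the lines differed by less than 2-fold on both arrays. The difference between the probes, probe 2 minus probe 1, was -1.80 on array 1 and -2.14 on array 2, far more than the spread between arrays. Probe 1 was the dimmest of the 8 probes, at 8.25 to 10.3 times its background against 244 to 1131 times for probe 2. It starts 1075 bases upstream of probe 2 on mm9, and the part of its position and brightness in the disagreement was not tested.

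The single *Snhg17* probe had spot signals of 10434 units for B16F1-GFP-M and 2806 units for B16F1-GFP-D in Cy5, and of 2971 and 640 units in Cy3. Its log2 ratio was -2.29 on array 1 and -2.11 on array 2, with a mean of -2.20 ± 0.13, a 4.61-fold lower signal. *Gas5* probe 2 lay above *Snhg17* by 0.15 on array 1 and below it by 0.17 on array 2, so the order of these host genes was not settled. They ranked 17 and 18 from the lowest among the detected genes, and *Malat1* ranked 64. *Neat1* lay below *Malat1* probe 2 by more than the array spread, with a difference of -2.61 on array 1 and -2.49 on array 2. By the brightest probes, the order of the log2 ratios from the largest decrease was thus *Neat1*, then *Gas5* and *Snhg17* together, then *Malat1*. With the median of each gene's probes, *Gas5*, at -1.23, came behind *Malat1*, at -1.79.

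**Figure D1:**
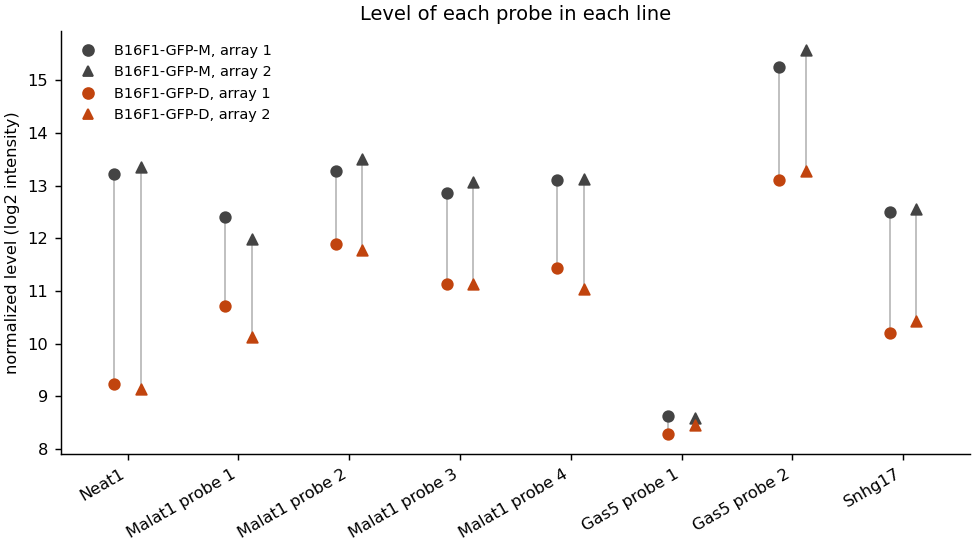
Normalized level (log2 intensity, y axis) of each of the 8 probes (x axis) in B16F1-GFP-M (grey) and B16F1-GFP-D (orange) on array 1 (circles) and array 2 (triangles); each grey line joins the lines' values on 1 array, and levels are to be compared within a probe only. The *Neat1* levels are 13.22 and 13.35 in B16F1-GFP-M against 9.23 and 9.13 in B16F1-GFP-D, while those of *Gas5* probe 1 lie close together, at 8.62 and 8.59 against 8.28 and 8.45.

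Read with the same dye in both lines and without normalization, *Malat1* probes were 2.40-fold to 4.51-fold brighter in B16F1-GFP-M in Cy5 and 2.26-fold to 3.43-fold in Cy3. *Gas5* probe 2 was 3.13-fold and 4.43-fold brighter in B16F1-GFP-M, and *Snhg17* 3.80-fold and 4.77-fold. The median of the same quantity over all 19141 detected probes was 0.995 in Cy5 and 0.932 in Cy3, near 1. The direction of all 4 RNAs was thus the same in each dye, although the sizes of *Malat1* probe 1 differed between Cy5, with 4.51-fold, and Cy3, with 2.26-fold.

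**Figure D2:**
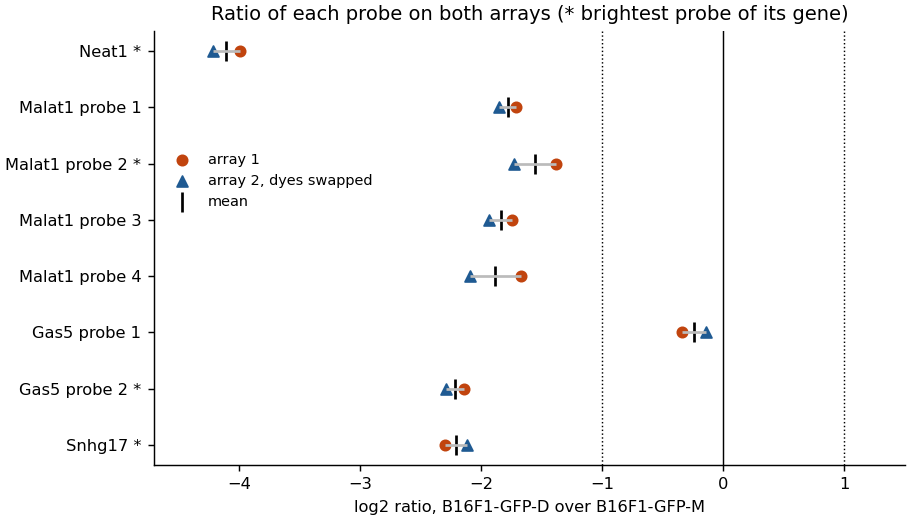
Log2 ratio (dormant cell-derived over maternal line, x axis) of each probe on array 1 (orange circles) and array 2 (blue triangles), with the mean as a black bar, a grey line between both arrays, dotted lines at 2-fold, and a star at the brightest probe of each gene. Every probe except *Gas5* probe 1 lies left of the dotted line on both arrays, and *Neat1* lies farthest to the left, at -3.99 and -4.22.

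A gene or probe was called when its log2 ratio passed 1 in size on each array by itself, a difference of 2-fold or more, with both arrays pointing one way, and it was detected, which means flagged well above background for one and the same line on both arrays. This rule of size is no test. Of the 8 member probes, 7 were called lower and none higher, where 1.52% of all detected probes were called lower. By their brightest probes, 4 of the 4 genes were called lower, against 1.94% of all detected genes, 243 of 12540. A further 387 genes, or 3.09%, were called higher. Since the genes were chosen from these values, nothing is read from the counts. The median of the 4 genes was -2.21, where that of all detected genes was -0.01. With each array centred on its median in place of loess, only *Neat1* remained past the rule. *Gas5* probe 2 was then at -3.21 on array 1 and -0.54 on array 2, and *Snhg17* at -3.34 and -0.71, with the sign of all 4 brightest probes kept. Under this setting, the median of all detected genes was itself -0.86 on array 1 and 1.02 on array 2.

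**Figure D3:**
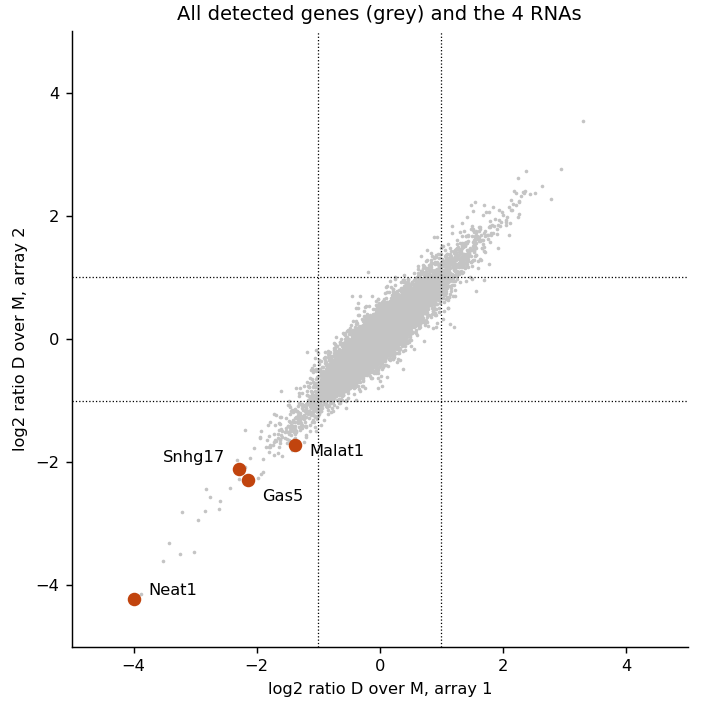
Log2 ratio (dormant cell-derived over maternal line) on array 1 (x axis) against array 2 (y axis) for all 12540 detected genes (grey points) and the 4 RNAs (orange points), with dotted lines at 2-fold. *Neat1* is the lowest point under this normalization, at -3.99 and -4.22, and the other RNAs lie at the lower left of the cloud, past 2-fold on both arrays.

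Among the detected genes with a RefSeq symbol, those with values most like each RNA were found. The measure was the distance between the 2 array values on the log2 scale, over 2 arrays that hold the same 2 RNAs. For *Neat1* these were *Akr1b7*, with a mean of -4.01, *Nupr1*, with -3.56, and *Timp3*, with -3.37, at distances of 0.14, 0.77 and 1.03. For *Gas5* they were *Cyb5r2* (-2.18), *Ddit3* (-2.29) and *Cth* (-2.12), at distances of up to 0.165. Genes without a RefSeq symbol were left out here, among them *Zfas1*, whose values of -2.14 on array 1 and -2.35 on array 2 are close to those of *Gas5*. For *Snhg17* the nearest were *Cbr2* (-2.17), *Enah* (-2.13) and *Chac1* (-2.15), at distances of up to 0.145. For *Malat1* they were *Calcrl* (-1.61), *Lcp1* (-1.57) and *Aldh6a1* (-1.49), within 0.12.

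The RNAs for proteins that build paraspeckles with *Neat1* were read from a list of 25 genes, 24 of them detected. No protein was measured. None was called lower and 1 was called higher, *Rbm14*, a paraspeckle protein needed for their assembly, with a log2 ratio of 1.11 on array 1 and 1.54 on array 2. The median of the list was 0.14, where that of all detected genes was -0.01. *Nono* and *Hnrnpk*, its brightest genes, were at 0.40 ± 0.18 and 0.14 ± 0.01, less than 2-fold from the maternal line. *Neat1* was the lowest of all detected genes under this normalization, so no gene of any list could reach its size. In this list, 17 genes lay above 0 on both arrays and 4 below, and the lowest was at -0.91. Among all detected genes, 41.0% lay above 0 on both arrays and 42.8% below. Over all detected genes, 1.94% were called lower and 3.09% higher, so a count of 0 in a list of this size is near the background. Of 30 genes for nuclear speckle and splicing proteins, all 30 detected, 0 were called in either direction, and their median was 0.04. The brightest of these were *Son*, a scaffold protein of speckles, at -0.04 ± 0.13, and *Tra2a*, a splicing regulator, at -0.39 ± 0.16.

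Genes for the machinery that forms the 3′ ends of *Neat1* and *Malat1*, among them subunits of RNase P and cleavage factors, were detected for 19 of 20. *Rpp38*, which encodes a protein of RNase P and RNase MRP, was the only one called, with a log2 ratio of -1.12 and -1.10, a 2.16-fold lower signal. Over all detected genes, 1.94% were called lower. The median of this list was 0.08. *Pop7* and *Pop5*, other subunits of these enzymes and the brightest of the list, were at -0.35 ± 0.12 and 0.03 ± 0.03.

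Of the 8 lists, that of the non-coding host genes of small nucleolar RNAs held the most genes called lower. Of 21 genes, 13 were on the arrays and 9 were detected, and 5 of these were called lower and 0 higher: *Zfas1*, *Gas5*, *Snhg17*, *Snhg5* and *Snhg16*. *Zfas1*, which the array files name 1500012F01Rik, was at -2.14 on array 1 and at -2.35 on array 2, a 4.74-fold lower signal, close to those of *Gas5* and *Snhg17*. *Snhg5* was at -1.48 and -1.54, and *Snhg16* at -1.19 and -1.43. *Snhg7* lay just short of the rule, at -0.93 and -0.90. The 3 other detected hosts did not share this: *Snhg14* was at -0.11, *Snhg20* at -0.04, and *Snhg3* lay above 0, at 0.52 and 0.46. Leaving out both members, 3 of 7 detected host genes were called lower, with a median of -0.92, where 1.94% of all detected genes were called lower. Earlier results of these data had already shown hosts of this kind, so the count is not independent of the choice of *Gas5* and *Snhg17*. The median of the whole list, -1.31 over 9 detected genes, rests on the filter for dim probes: it was -0.11 over 13 genes without the filter, -0.50 on array 2 alone and -0.54 on array 1 alone, each over 12 genes.

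Of the protein-coding genes that also carry small nucleolar RNAs in their introns, all 17 were detected. Of these, 0 were called lower and 1 was called higher, *Hspa8*, a constitutive heat shock protein, with 1.36 and 1.10. Over all detected genes, 1.94% were called lower and 3.09% higher, so counts of 0 in lists of this size are near the background. The median of these hosts was -0.15 and the lowest was at -0.64, with 10 genes below 0 on both arrays and 4 above. Among all detected genes, 42.8% lay below 0 on both arrays and 41.0% above. The brightest were *Rack1*, a ribosomal scaffold protein, at -0.51 ± 0.41, and *Rpl7a*, a protein of the large ribosomal subunit, at 0.36 ± 0.24. The genes for proteins that assemble with the small nucleolar RNAs had a median of 0.16 over 16 detected genes, none called. Among them, *Fbl*, for the methyltransferase fibrillarin, was at 0.34 ± 0.02 and *Ruvbl1*, for an assembly factor, at 0.48 ± 0.02. Of the genes for factors of nonsense-mediated decay, 17 of 18 were detected and 0 were called, with a median of -0.11. Here *Upf3a* was at -0.47 ± 0.04 and *Magoh* at 0.37 ± 0.19.

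Other long non-coding RNAs, from a list of 51 known genes, were mostly near background. Of 29 on the arrays, 11 were detected and 0 were called, where 1.94% of all detected genes were called lower. The median of the 11 was -0.24. The brightest were *Rmrp*, the RNA component of RNase MRP, at -0.59 ± 0.03, and *Lockd* at 0.08 ± 0.08. This list does not stand for the whole class. Of 157 detected genes that RefSeq classes as long non-coding RNAs, other than the members, 8.28% were called lower, as given in the last section. The lists differed in their levels and in the number of genes detected, and no difference between lists was tested.

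**Figure D4:**
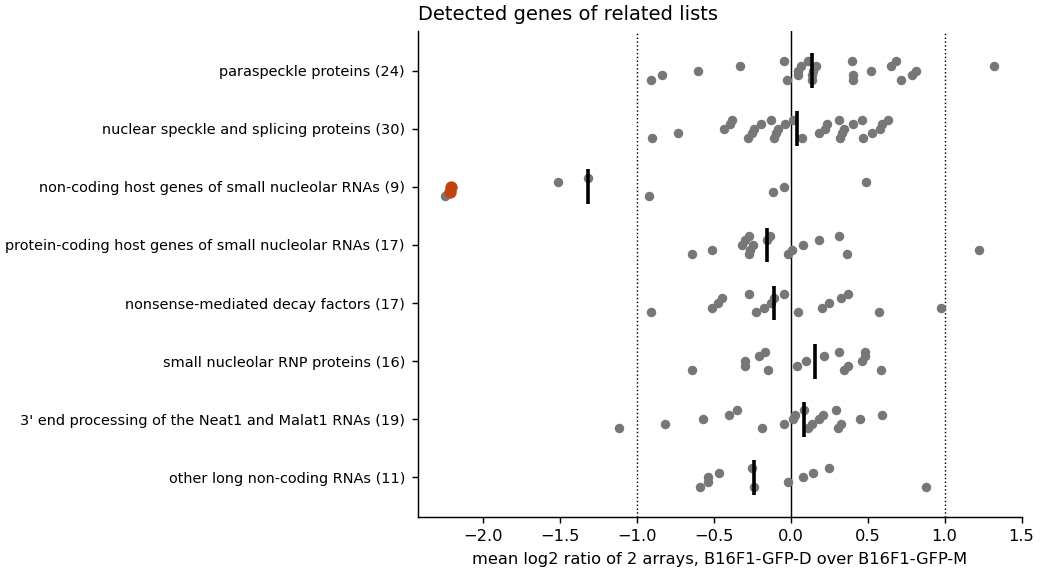
Mean log2 ratio of both arrays (dormant cell-derived over maternal line, x axis) of each detected gene of 8 related lists (rows, with the number of detected genes in brackets), with *Gas5* and *Snhg17* in orange, other genes in grey, list medians as black bars and dotted lines at 2-fold. The non-coding host genes of small nucleolar RNAs reach from -2.24 to 0.49 with a median of -1.31, while the other 7 medians lie between -0.24 and 0.16; without the filter on dim probes the first median is -0.11.

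The genes around the RNAs on their chromosomes were read from their brightest probes too. Within 500 kb of the *Neat1* and *Malat1* probes, 49 other genes were detected, of which 0 were called lower and 3 were called higher: *Rnaseh2c*, a subunit of RNase H2, with 1.80 and 1.82, *Sipa1*, a Rap GTPase activator, with 1.25 and 1.35, and *Cdca5*, the cohesin regulator sororin, with 1.06 and 1.26. Over all detected genes, 1.94% were called lower and 3.09% higher, so the counts of 0 called lower here and around *Gas5* and *Snhg17* are near the background. The median of these neighbours was 0.05 and the lowest was at -0.73. *Frmd8*, at 8.75 kb from the *Neat1* probe, was at 0.49. Around *Gas5*, 7 genes were detected and 0 were called, with values between -0.27 and 0.87; *Zbtb37*, at -7.62 kb from its probe, had a log2 ratio of -0.25. Around *Snhg17*, 8 genes were detected and 0 were called, with values between -0.94 and 0.75. *Snhg11*, a further host gene in this stretch, was not detected.

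**Figure D5:**
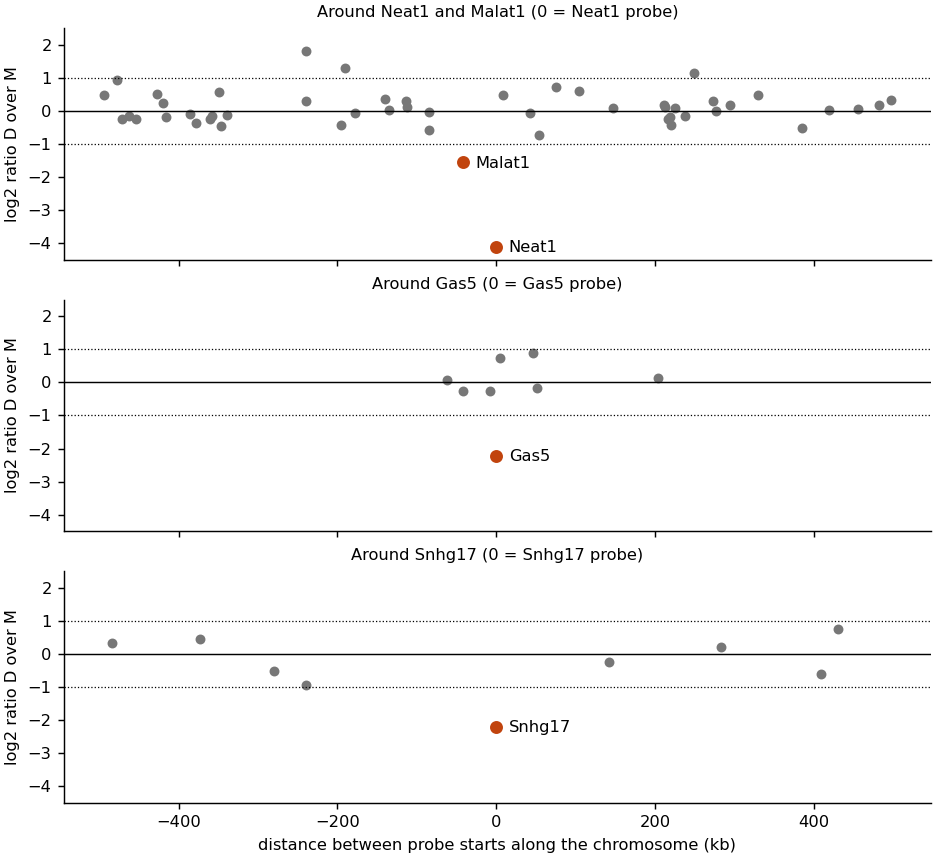
Mean log2 ratio (dormant cell-derived over maternal line, y axis) of each detected gene against the distance of its probe along the chromosome in kb (x axis), around *Neat1* and *Malat1* (top), *Gas5* (middle) and *Snhg17* (bottom), members in orange, neighbours in grey, with dotted lines at 2-fold. All neighbours lie above -1, the lowest being at -0.94 near *Snhg17*, and all 4 members lie below it.

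The start sites of these RNAs, which were chosen for their low values, were searched for letters of known elements. RefSeq windows of 300 bases were used, 250 before to 50 after each annotated start, on the assembly GRCm38.p6. Windows were given for 3 of the 4 genes, 1 for *Malat1*, 2 for *Gas5* and 2 for *Snhg17*. The letters searched, on both strands, were ACGTG (the hypoxia response core, contained in the E box), CACGTG (the E box), TGACGTCA (the cAMP response element), TGATGNAA (an element of C/EBP and ATF factors) and CCGGAAGT (an ETS site). A run of at least 5 C or T that begins with C within 10 bases of the start, the mark of terminal oligopyrimidine transcripts, was searched on the sense strand. The windows of *Malat1* and of the second *Gas5* start are shown because only these of the members' windows held a match, in capitals.

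Malat1: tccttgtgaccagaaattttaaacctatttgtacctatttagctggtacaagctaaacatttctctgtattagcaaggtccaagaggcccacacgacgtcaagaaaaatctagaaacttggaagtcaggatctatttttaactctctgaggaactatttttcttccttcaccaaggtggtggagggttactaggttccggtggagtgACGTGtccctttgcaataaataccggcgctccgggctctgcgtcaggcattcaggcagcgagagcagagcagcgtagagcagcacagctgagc
Gas5 second start: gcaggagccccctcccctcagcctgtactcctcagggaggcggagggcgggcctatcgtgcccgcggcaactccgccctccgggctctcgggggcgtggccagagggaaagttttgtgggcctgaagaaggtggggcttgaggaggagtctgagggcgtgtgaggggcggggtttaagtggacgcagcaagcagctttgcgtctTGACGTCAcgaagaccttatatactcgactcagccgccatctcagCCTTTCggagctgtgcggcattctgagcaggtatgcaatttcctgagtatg

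The *Malat1* window, chr19:5802623-5802922 on the minus strand, held ACGTG, which 19.6% of all 32851 windows held. The second *Gas5* window, chr1:161034916-161035215 on the plus strand, held TGACGTCA beginning 46 bases before the start, found in 1.79% of all windows, and the pyrimidine run CCTTTC at the start, a feature present in 22.9% of all windows. *Gas5* is a known member of the terminal oligopyrimidine class. No match to any of these letters was found in the first *Gas5* window or in either *Snhg17* window. Among other hosts called lower, those of *Zfas1* and *Snhg16* held none, and *Snhg5* held ACGTG on the opposite strand. Hosts not called held matches too. *Snhg3*, which lay above 0, held the ETS letters on the opposite strand, with a pyrimidine run inside them. *Snhg7* held a pyrimidine run and ACGTG, and *Snhg20* the ETS letters. The members shared none of the letters searched across all their windows, and a match of letters says nothing of whether a factor was bound.

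Whether the cultures were melanocytic was checked with marker genes. Of 12 melanocyte markers, 10 were detected and 0 were called, with values between -0.92 and 0.37; *Kit* and *Ednrb* were not detected. Of 4 endothelial and 4 epithelial markers none was detected, and 2 of 7 fibroblast and 2 of 7 leukocyte markers were detected, none of them called. Since 1.94% of all detected genes were called lower and 3.09% higher, counts of 0 among so few markers are near the background. On array 1, 60.7% of all spots were well above background with B16F1-GFP-M RNA and 44.1% with B16F1-GFP-D RNA, and on array 2 these shares were 45.0% and 56.1%, so the share moved with the dye.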

How the data were processed

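The RNAs of both cell lines were hybridised together to 2 Agilent 2-colour arrays with exchanged dyes. The authors deposited spot and local background intensities read with Agilent Feature Extraction 10.7.3.1, per the submitters' processing notes, and not normalized. The deposited log10 ratio of Cy5 over Cy3, also given in the series value table to within 0.005, was background-subtracted and dye-normalized by the authors' software and served as an alternative. The deposited flags gave spots well above background and outliers. The authors' normalization beyond the software is not given in the sources used here.

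Outlier spots (143 on array 1, 176 on array 2) were left out of 43379 non-control spots. With limma 3.58.1 in R 4.3.3, mean signals were corrected by normexp (offset 50), which draws ratios of dim spots towards 0, and normalized by loess within arrays. Ratios were turned to log2 of the dormant cell-derived over the maternal line and spots of a probe averaged, leaving 41164 probes. Of 28075 probes with a RefSeq accession, 27198 were named through the GRCm38.p6 table, used for names only, and the rest kept the file's name, as did *Gas5*; list genes absent by symbol were matched by an older symbol of that table. The brightest probe stood for a gene. Named were all member probes, up to 5 called genes per direction and the 2 brightest of each list, called neighbours within 500 kb, and the 3 detected RefSeq-named genes nearest to each member. Other neighbours, hosts, paraspeckle genes and start-site windows were chosen after their values were seen. The members and lists were chosen with earlier results of these data known. The alternatives were other background corrections, centring, scaling, filters, probe summaries, fold thresholds and each array alone; member counts at 1.5-fold and 3-fold were added after seeing the data. Some neighbouring genes are not reported here. The procedure was also run on simulated arrays in which only brighter probes were changed, so that run says nothing about changes in dim probes. Counts and figures were made with pandas 2.3.3, numpy 2.4.6 and matplotlib 3.10.9 under Python 3.11.15. The number of arrays limits the precision.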

Additional observations from a re-analysis of the deposited data

How the results depend on the processing

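All 4 RNAs kept a negative log2 ratio under all 11 alternatives, from -4.30 to -3.94 for *Neat1*, from -1.79 to -1.31 for *Malat1*, from -2.28 to -1.23 for *Gas5* and from -2.29 to -2.03 for *Snhg17*. The scanner software's log ratio moved *Neat1* to -4.29, with 1356 genes past 2-fold, 597 of them lower, and list medians of 0.028 (nuclear speckle), -0.15 (decay factors), 0.047 (3′ end processing) and -0.31 (other long non-coding RNAs). The series value table gave -4.30, 1352, 594, 0.028, -0.15, 0.047 and -0.31 for the same results. With normexp at an offset of 0 these were -4.27 for *Neat1*, 1077 and 442 genes, and medians of 0.032 (speckle), -0.22 (protein-coding hosts), -0.14 (decay) and -0.30 (other long non-coding RNAs). No background subtraction gave 0.041 (speckle) and -0.12 (decay). With median centring, which leaves out loess and put the median of detected genes at -0.86 on array 1 and 1.02 on array 2, *Neat1* was at -3.94, *Gas5* at -1.87 and *Snhg17* at -2.03, and 1 of the 4 RNAs, 64 genes in all and 19 lower genes were past the rule. The medians were then 0.31 (paraspeckle), 0.25 (speckle), -1.08 (non-coding hosts), 0.27 (protein-coding hosts, a change of sign), -0.011 (decay), 0.27 (small nucleolar RNP), 0.23 (3′ end) and -0.21 (other long non-coding RNAs). Aquantile scaling leaves ratios within an array as they are and changed none. Without the filter on dim probes, the medians were -0.11 (non-coding hosts, 13 genes), -0.076 (decay), 0.057 (3′ end) and -0.032 (other long non-coding RNAs), and requiring both lines above background gave -0.018 for the last. The median of a gene's probes moved *Gas5* to -1.23 and the medians to 0.069 (speckle), -0.065 (protein-coding hosts), -0.077 (decay) and 0.065 (3′ end). At 1.5-fold, 1980 genes were past the rule and 880 lower; at 3-fold, 123 and 49. The causes of these shifts were not tested.

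With 1 array left out, the medians ranged from 0.15 to 0.16 (paraspeckle), from 0.026 to 0.028 (speckle), from -0.54 to -0.50 (non-coding hosts, 12 genes detected), from -0.12 to -0.098 (protein-coding hosts), at -0.056 (decay), from 0.083 to 0.22 (small nucleolar RNP), from 0.052 to 0.082 (3′ end) and from -0.14 to -0.13 (other long non-coding RNAs). No paired analysis was possible because both arrays hold the same 2 RNAs and give 1 replicate per line. The 2 arrays cannot show variation between cultures.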

Other observations

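Beyond the lists above, the genes that RefSeq classes as long non-coding RNAs were counted after their values had been seen, so the counts are a description. Other than the 4 members, 157 of them were detected. Of these, 13 were called lower in B16F1-GFP-D, or 8.28%, and 1 was called higher, or 0.637%. Among 10854 detected protein-coding genes, 204 were called lower, or 1.88%, and 343 higher, or 3.16%. The median log2 ratio was -0.20 for the long non-coding RNAs without the members and -0.01 for the protein-coding genes. The lowest of the 13 were *A030001D20Rik* at -1.66 ± 0.05, *2700046G09Rik* at -1.61 ± 0.30 and *1110038B12Rik* at -1.60 ± 0.13, and *Snhg5* and *Snhg16* are among them. The gene called higher was *B230311B06Rik*, at 2.00 ± 0.16. *Zfas1* is not in these counts, since the accession of its probe has no match in the RefSeq table and the array's older symbol carries no class there.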
